A study of Rattus norvegicus with 12 samples.

Results

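Astrocytes are the glial cells that clear water, potassium and glutamate from the space around hippocampal synapses, and 10 genes that carry out or accompany these tasks were followed through 12 arrays of rat CA1. The genes were Aqp4, Kcnj10, Slc1a2, Slc1a3, Glul, Gja1, Gfap, Agt, Ntsr2 and Aldoc. Every probe set annotated with 1 of these symbols and no other was taken, which gave 10 of the 10411 genes with such a probe set and 19 of the 15923 probe sets on the array. A probe set is a group of short probes that together give 1 value per array.

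RNA came from CA1, the output field of the hippocampus, dissected from male Long-Evans rats aged 3 to 4 months and was hybridised to Affymetrix RAE230A arrays. The arrays are labelled biological replicates, and whether each holds RNA of 1 rat is not stated, so p-values measure the spread between these samples. The spatial learning rats (6 arrays) swam 8 trials at 8-minute intervals in an unfamiliar maze that had orienting cues and a visible platform in a constant place. The control task rats (6 arrays) swam as many trials to a visible platform that was moved between trials, in surroundings without informative cues. Both groups had been trained in a standard water maze 2 to 3 weeks before, both were given a 90-second probe trial without a platform 1 hour after the last swim, and tissue was collected at once, so no group was left untrained. CA1 also holds neurons, other glia and vessels, and fewer astrocytes and less RNA per astrocyte cannot be told apart in such bulk samples.

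As background, Aqp4 is the water channel and Kcnj10 (Kir4.1) the inward rectifier potassium channel of astrocyte membranes, both enriched in the endfeet around vessels. Slc1a2 (GLT-1) and Slc1a3 (GLAST) carry synaptic glutamate into astrocytes, where glutamine synthetase, encoded by Glul, turns it into glutamine that is returned to neurons. Gja1 encodes Cx43, a connexin whose gap junctions join astrocytes into a network through which potassium and small metabolites spread. Gfap encodes their intermediate filament, Agt the precursor of angiotensin, Ntsr2 a neurotensin receptor and Aldoc the brain form of aldolase, a glycolytic enzyme.

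Slc1a2 is shown with its sequence because its probe sets disagreed most. RefSeq's table for GRCr8 lists 2 starts for it on the plus strand of chromosome 3, 47.8 kb apart, at chr3:109459859-109460108 and chr3:109507697-109507946 for the 250 bases before each start. CpG dinucleotides are in capitals, and the deposited table does not say which start a probe set reads.
Slc1a2, upstream start: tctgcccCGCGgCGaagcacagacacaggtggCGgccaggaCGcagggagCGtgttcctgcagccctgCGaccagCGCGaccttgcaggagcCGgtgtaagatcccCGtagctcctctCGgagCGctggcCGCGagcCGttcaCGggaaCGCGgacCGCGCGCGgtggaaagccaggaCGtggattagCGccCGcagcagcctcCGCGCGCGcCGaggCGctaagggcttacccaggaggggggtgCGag
Slc1a2, downstream start: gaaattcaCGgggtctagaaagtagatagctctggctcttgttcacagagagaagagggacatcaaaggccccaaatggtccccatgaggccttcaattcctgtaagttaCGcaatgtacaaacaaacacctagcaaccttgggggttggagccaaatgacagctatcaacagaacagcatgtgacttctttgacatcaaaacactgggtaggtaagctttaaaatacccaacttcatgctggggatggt
The upstream window has 33 CpG and 71.2% G and C, the downstream one 2 CpG and 45.6%, against medians of 5 CpG and 51.2% over 33469 such windows of all genes. At least 33 CpG were found in 3.6% of all windows, and at most 2 in 28.6%.

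Markers of CA1 pyramidal neurons were high on every array, with means of 10.12 to 10.49 after spatial learning and 10.06 to 10.36 after the control task (log2, 8 genes). Control task replicates 3 and 6 and spatial learning replicate 6 stood apart. Ttr, the abundant transcript of choroid plexus, was 3.66 to 4.43 on the spatial learning arrays, against 4.55 to 13.41 on the control task arrays, with no overlap (difference -3.33, SE 1.17, exact permutation p = 0.00216, limma adjusted p = 0.423). The highest control task values were 13.41 on replicate 3, 8.79 on replicate 6 and 7.54 on replicate 2, and meningeal markers averaged 7.85 on spatial learning replicate 6 and 8.02 on control task replicate 6. Results are given with and without these 3 arrays where they rest on them.

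Of the 19 probe sets, 17 reached the signal required for testing, a 12-array average of 4 or more (log2). The others were 1 of 3 Slc1a3 probe sets, 1371130_at, with means of 3.42 after spatial learning and 3.41 after the control task, and 1 of 3 Gja1 probe sets, 1369639_at, with means of 2.02 and 2.01 in the same order. On 15 of the 17 the spatial learning mean was below the control task mean, as it was on 46.3% of all 9610 tested probe sets. The median difference, spatial learning minus control task, was -0.14 over the 17 and 0.01 over all tested probe sets. Several of the 17 read the same gene, and by the highest-signal probe set of each gene 8 of 10 were lower (median -0.10). Lower means were not particular to these genes. By the same choice 13 of 15 oligodendrocyte and 10 of 11 microglial markers were lower, against 5 of 10 vascular and 0 of 8 CA1 markers. Among the other marker lists 5 of 6 dentate, 5 of 7 meningeal, 2 of 3 choroid plexus and 1 of 5 CA3 markers were lower. No astrocyte probe set passed the test (limma, adjusted over all 9610 probe sets, 0 of 17), and the percentage called over the whole table was also 0. Without adjustment 4 of the 17 had a p under 0.05 in limma and were lower, from Slc1a2, Aqp4, Kcnj10 and Ntsr2, where 4.55% of all tested probe sets were so, and 0 were higher, against 6.36% of all. The exact permutation test, adjusted the same way, called 0, with a smallest possible p of 0.00216. After adjustment over 9610 probe sets that p can pass only if very many probe sets reach it, so this count is no separate support.

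**Figure D1:**
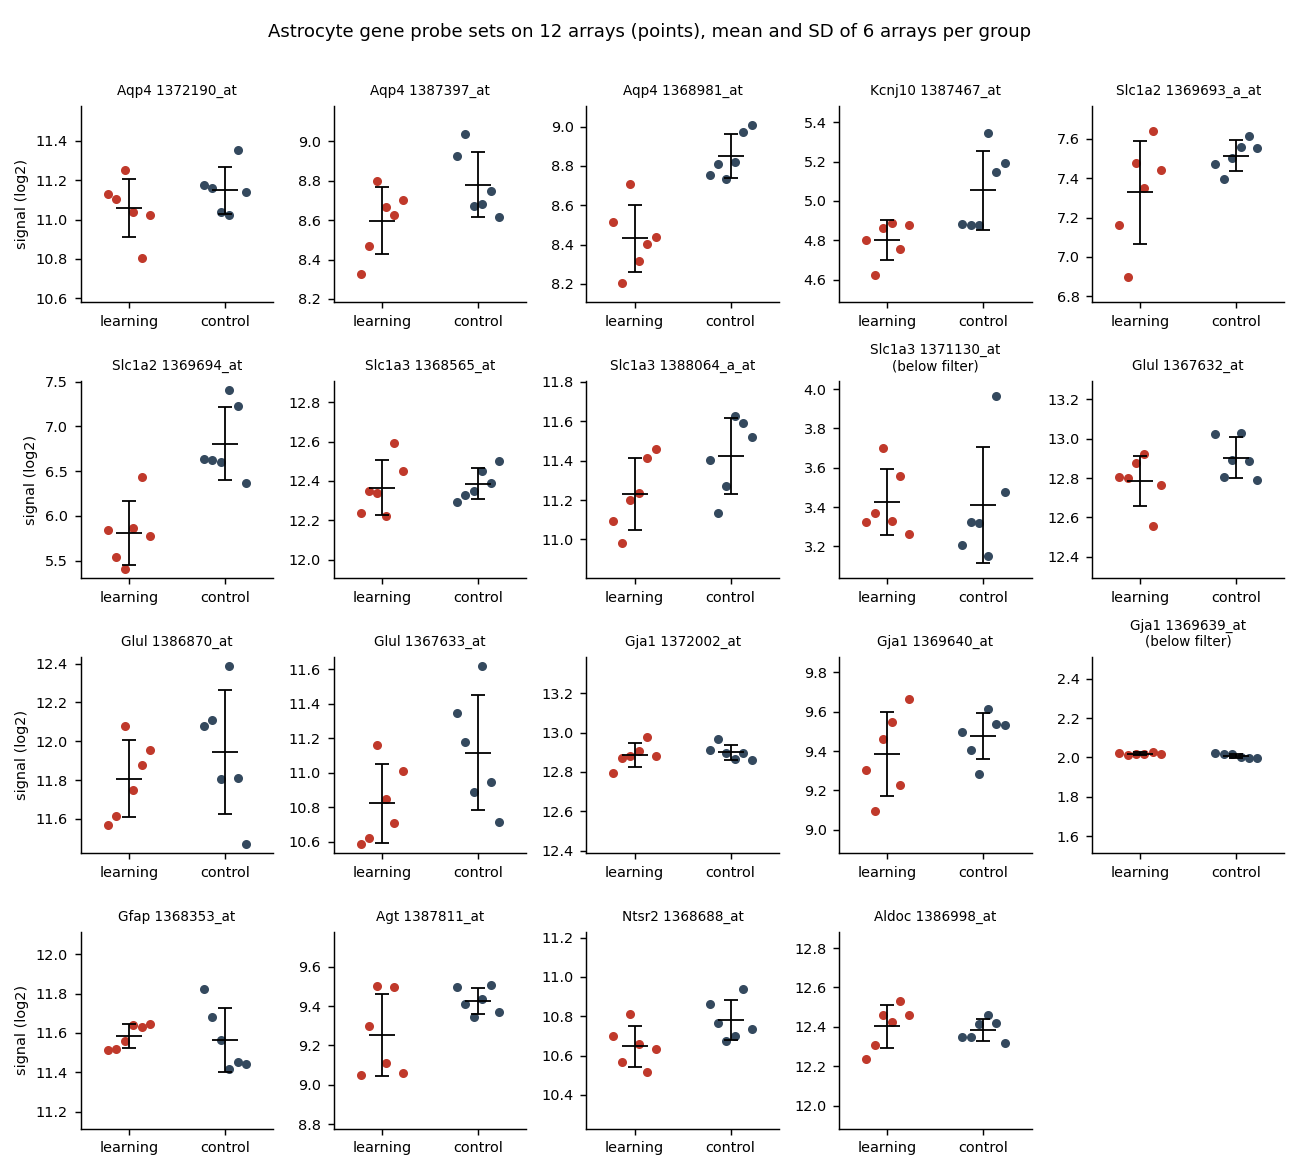
Signal (log2, vertical axes with a span of at least 1 unit) of the 19 probe sets on each of the 6 spatial learning arrays (red, left) and the 6 control task arrays (dark, right), with group mean and SD as bars. Only on Aqp4 1368981_at do the groups not overlap, and on all the others they do.

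The potassium and water channels were among the lower ones, with the size of the difference depending on the probe set for Aqp4. Aqp4 probe set 1368981_at ranged from 8.20 to 8.71 with a median of 8.42 (log2) after spatial learning, against 8.73 to 9.01 with a median of 8.81 after the control task. All 6 spatial learning arrays lay below all 6 control task arrays, the only 1 of the 17 probe sets with that separation, which 0.271% of all tested probe sets showed. Its difference was -0.42 (SE 0.08, 95% interval -0.59 to -0.25, n = 6 each), a level 0.748 times that of the control task, with a limma adjusted p of 0.216. This was the sixth smallest p of the table, and the gene had been singled out in earlier results of these data.

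The other Aqp4 probe sets gave smaller differences and overlapping groups. Probe set 1387397_at, annotated to the same sequence record as 1368981_at, averaged 8.60 ± 0.17 after spatial learning and 8.78 ± 0.17 after the control task (SD, n = 6 each), a difference of -0.18 (SE 0.09, limma adjusted p = 0.473). Probe set 1372190_at, with the highest signal, averaged 11.06 ± 0.15 and 11.15 ± 0.12 in the same order, a difference of -0.09 (SE 0.07, limma adjusted p = 0.684). Its highest spatial learning array, replicate 3 at 11.25, was above 5 of the 6 control task arrays.

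Kcnj10 had 1 probe set, which ranged from 4.62 to 4.89 with a median of 4.83 after spatial learning, against 4.88 to 5.34 with a median of 5.01 after the control task. The groups met in a narrow zone: 5 of 6 spatial learning arrays lay below every control task array, and control task replicates 1, 2 and 3 were all at 4.88. The difference was -0.25 (SE 0.09, 95% interval -0.44 to -0.07, limma adjusted p = 0.420).

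Slc1a2 had the widest difference of the 10 genes on 1 probe set and a small one on the other. Probe set 1369694_at ranged from 5.41 to 6.44 with a median of 5.80 after spatial learning, against 6.36 to 7.41 with a median of 6.63 after the control task. Of the 6 spatial learning arrays 5 lay below every control task array, and the exception was replicate 5 at 6.44, just above control task replicate 6 at 6.36. The difference was -1.0 (SE 0.20, 95% interval -1.42 to -0.58), a level 0.50 times that of the control task, with a limma adjusted p of 0.216. Probe set 1369693_a_at, of higher signal, averaged 7.33 ± 0.26 after spatial learning and 7.52 ± 0.08 after the control task (SD, n = 6 each). Its difference was -0.19 (SE 0.10, 95% interval -0.41 to 0.04, limma adjusted p = 0.532), with 3 spatial learning arrays below all controls and 1 above all.

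**Figure D2:**
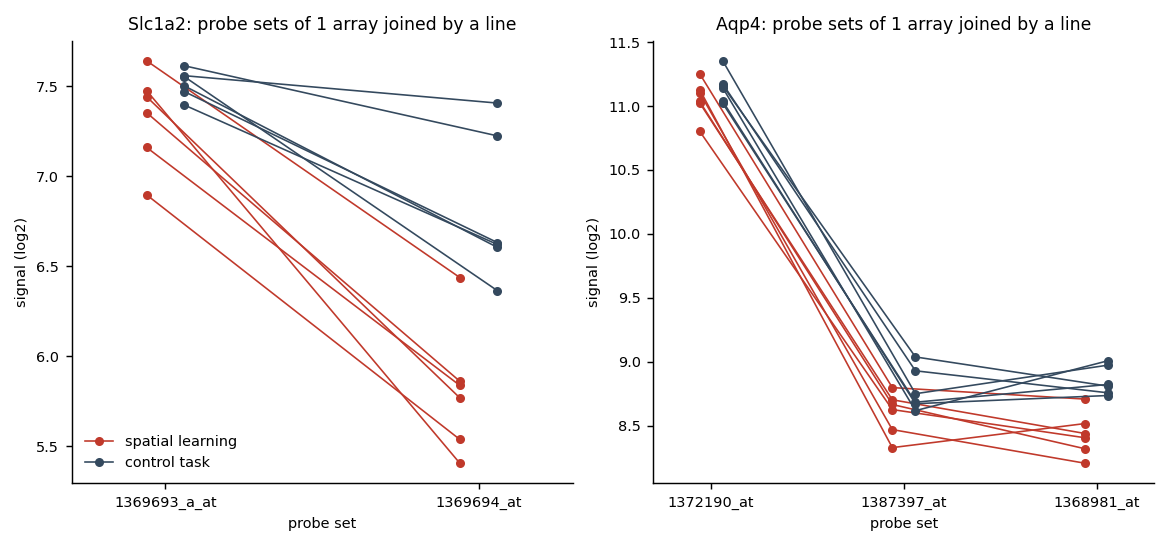
Signal (log2, vertical axes) of the Slc1a2 (left) and Aqp4 (right) probe sets, ordered by mean signal, with 1 line per array, red for spatial learning and dark for control task. For Slc1a2 the groups overlap by 1 array of each at 1369694_at and more widely at 1369693_a_at, and for Aqp4 they part only at 1368981_at.

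Whether probe sets of a gene differ in their group difference was tested directly, on each lower-signal probe set minus the highest-signal one of its gene, over 1144 such gaps of 951 genes. The Slc1a2 gap averaged -1.52 ± 0.31 after spatial learning and -0.71 ± 0.37 after the control task (SD, n = 6 each). The gap differed by -0.81 (SE 0.17, 95% interval -1.19 to -0.44), in size the largest of the 1144, but did not pass (limma adjusted p = 0.0723, adjusted over all gaps). It passed without control task replicate 6, at -0.91 (limma adjusted p = 0.0481), and with arrays weighted by their quality, at -0.78 (limma adjusted p = 0.0478). Under every other alternative the Slc1a2 gap did not pass. It was -0.95 without the 3 arrays that stood apart (limma adjusted p = 0.0995). With an RNA control described below as a covariate it was -0.52 (limma adjusted p = 0.915). The disagreement had been seen in earlier results of these data, so its rank is a description. The Aqp4 gap of 1368981_at averaged -2.63 ± 0.17 after spatial learning and -2.30 ± 0.11 after the control task, a difference of -0.33 (SE 0.09, limma adjusted p = 0.130), whereas that of 1387397_at differed by -0.09 (SE 0.11, limma adjusted p = 0.812). Of the 7 gaps in the astrocyte genes 0 passed, where 0.262% of all gaps did, and the gaps with an unadjusted limma p under 0.05 were those of Slc1a2 and of Aqp4 1368981_at, where 10.1% of all gaps had one.

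Slc1a3, the other glutamate transporter, also had its larger difference on the probe set of lower signal, without passing. Probe set 1368565_at averaged 12.37 ± 0.14 after spatial learning and 12.39 ± 0.08 after the control task (SD, n = 6 each), a difference of -0.02 whose 95% interval ran from -0.15 to 0.11. Probe set 1388064_a_at averaged 11.23 ± 0.18 and 11.42 ± 0.19 in the same order, a difference of -0.19 (SE 0.10, limma adjusted p = 0.489). The gap between them differed by -0.17 (SE 0.09, limma adjusted p = 0.513).

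Glul, glutamine synthetase, was lower on each of its 3 probe sets, which are annotated to 1 sequence record, and passed on none. Probe set 1367633_at ranged from 10.58 to 11.16 with a median of 10.78 after spatial learning, against 10.71 to 11.62 with a median of 11.06 after the control task. Its groups overlapped, and its difference was -0.29 (SE 0.15, limma adjusted p = 0.480). Probe set 1386870_at averaged 11.81 ± 0.20 after spatial learning and 11.94 ± 0.32 after the control task (SD, n = 6 each), a difference of -0.14 (SE 0.14, limma adjusted p = 0.748). Probe set 1367632_at, with the highest signal, averaged 12.79 ± 0.13 and 12.90 ± 0.10 in the same order, a difference of -0.12 (SE 0.06, limma adjusted p = 0.506). Without the 3 arrays that stood apart the difference of 1386870_at was -0.32 and that of 1367633_at -0.49 (limma adjusted p = 0.388 and 0.249), and without control task replicate 4 they were -0.05 and -0.19. The 1386870_at difference was -0.23 without control task replicate 6 and -0.09 without spatial learning replicate 1.

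The network, filament and glycolytic genes had differences from -0.09 to 0.02, and the signs of the Gfap, Aldoc and Gja1 1372002_at differences turned when single arrays were left out. Gja1 probe set 1372002_at averaged 12.89 ± 0.06 after spatial learning and 12.90 ± 0.04 after the control task, a difference of -0.01 with a 95% interval of -0.08 to 0.05, the narrowest of the 17. Its probe set 1369640_at averaged 9.38 ± 0.21 and 9.48 ± 0.12 in the same order, a difference of -0.09 (SE 0.09, limma adjusted p = 0.741). That difference was -0.19 without the 3 arrays that stood apart (limma adjusted p = 0.449), -0.15 without spatial learning replicate 6, and -0.04 without spatial learning replicate 2. Gfap ranged from 11.52 to 11.65 with a median of 11.60 after spatial learning, against 11.41 to 11.82 with a median of 11.51 after the control task. All 6 spatial learning values of Gfap lay inside the control task range, and the difference was 0.02 (95% interval -0.12 to 0.16). Aldoc ranged from 12.23 to 12.53 with a median of 12.44 after spatial learning, against 12.32 to 12.46 with a median of 12.38 after the control task. Its control task arrays lay inside the spatial learning range, and the difference was 0.02 as well (95% interval -0.08 to 0.12).

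Agt and Ntsr2, the secreted angiotensin precursor and the neurotensin receptor, were between these. Ntsr2 ranged from 10.52 to 10.81 with a median of 10.64 after spatial learning, against 10.67 to 10.94 with a median of 10.75 after the control task. On Ntsr2 4 of 6 spatial learning arrays lay below every control, and the difference was -0.13 (SE 0.06, limma adjusted p = 0.437). Agt ranged from 9.05 to 9.50 with a median of 9.21 after spatial learning, against 9.34 to 9.51 with a median of 9.42 after the control task. Its spatial learning arrays spread widely, with 4 of 6 below every control and replicates 3 and 5 at 9.50 and 9.49, and the difference was -0.17 (SE 0.08, limma adjusted p = 0.466).

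**Figure D3:**
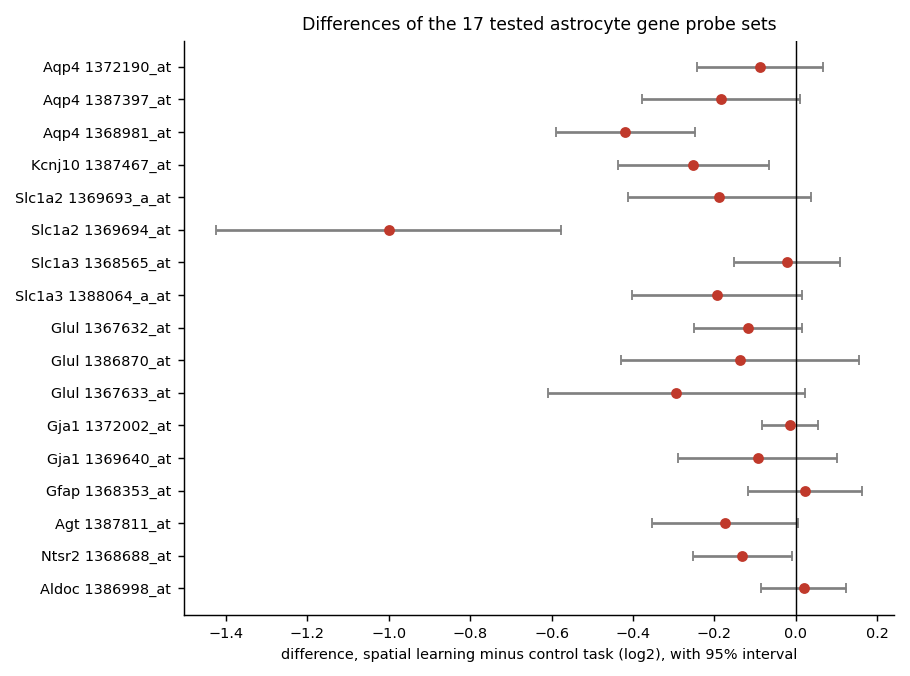
Difference in signal, spatial learning minus control task (log2, horizontal axis), of the 17 tested probe sets with limma's 95% interval, not adjusted for the number of probe sets. The points run from -1.0 for Slc1a2 1369694_at to 0.02 for Gfap and Aldoc, and 4 intervals lie wholly below 0.

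Of 3 RNA controls 1 differed between the groups after adjustment, and of 8 marker sets of other cells none did on all 12 arrays. The array carries probe sets for both ends of the hexokinase transcript, and a larger 3' minus 5' signal goes with less complete RNA or labelling. This gap was 1.65 ± 0.11 after spatial learning and 1.48 ± 0.08 after the control task (log2, SD, n = 6 each, exact permutation p = 0.00433, adjusted over 11 measures 0.0476). The same gap of beta-actin was 1.93 ± 0.07 and 1.83 ± 0.09 in the same order (exact permutation p = 0.0779, adjusted 0.171), and that of GAPDH averaged 0.37 in both groups (exact permutation p = 0.998). With the group means removed, Slc1a2 1369694_at and this gap ran opposite ways before adjustment (Pearson r = -0.60, permutation p = 0.0489, Spearman rho = -0.64, permutation p = 0.0351, n = 12 arrays). After adjustment over the 17 probe sets these permutation p were 0.831 and 0.597, r was -0.36 within the spatial learning and -0.93 within the control task arrays, and it was -0.65 without the 2 arrays of most extreme hexokinase gap. With the hexokinase gap as a covariate the Slc1a2 difference was -0.59 (limma adjusted p = 0.772), that of Aqp4 1368981_at -0.33 (limma adjusted p = 0.747) and that of Kcnj10 -0.15 (limma adjusted p = 0.825). The hexokinase gap was 1.35 to 1.55 on the control task and 1.55 to 1.82 on the spatial learning arrays. It nearly coincides with group, so the fit loses precision for every probe set and the 2 cannot be told apart.

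**Figure D4:**
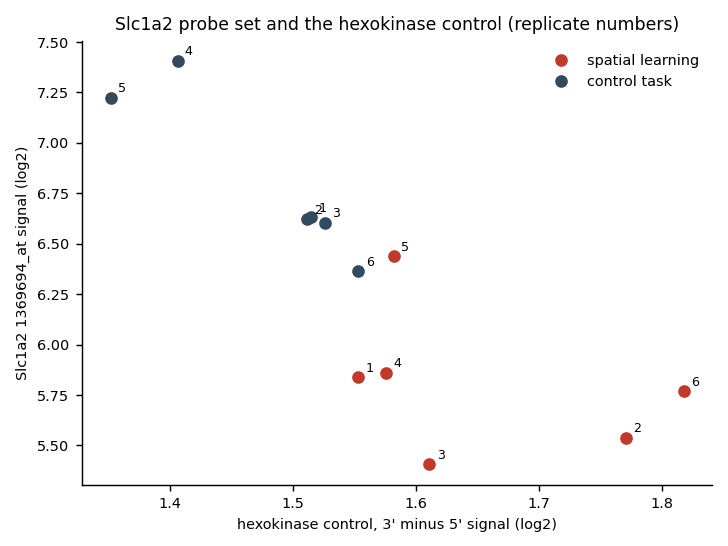
Slc1a2 1369694_at signal (log2, vertical) against the 3' minus 5' signal of the hexokinase control (log2, horizontal) on the 6 spatial learning (red) and 6 control task (dark) arrays, labelled by replicate number. The control task arrays lie at gaps of 1.35 to 1.55 and the spatial learning arrays at 1.55 to 1.82.

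Among the cell markers, the mean of 3 tested choroid plexus genes of 12 listed was 3.80 to 4.33 after spatial learning and 4.23 to 7.26 after the control task (exact permutation p = 0.0108, adjusted 0.0595). Of these genes Ttr differed by -3.33 and Prlr by -0.16, whereas Kcne2 differed by 0.18. Prlr and Kcne2 had 12-array means of 4.19 and 4.08, near the filter of 4, so the set mean followed Ttr. The CA1 pyramidal neuron markers, 8 of 12 tested, averaged 10.12 to 10.49 and 10.06 to 10.36 in the same order (exact permutation p = 0.0390, adjusted 0.143). Oligodendrocyte, microglial, CA3, dentate, vascular and meningeal markers had adjusted exact permutation p from 0.149 to 0.621. The smallest of these belonged to the dentate markers, which differed by -0.20 (exact permutation p = 0.0541). The part of the marker levels in the astrocyte values was not tested. Without the 3 arrays that stood apart, the Slc1a2, Aqp4 1368981_at and Kcnj10 differences were -1.15, -0.41 and -0.28, and all 17 probe sets were lower after spatial learning, with 0 passing in limma. On the same 9 arrays the CA1 markers averaged 10.36 ± 0.09 after spatial learning (SD, n = 5) and 10.09 ± 0.02 after the control task (SD, n = 4), a difference of 0.27 that passed (exact permutation p = 0.00794, adjusted 0.0437). The oligodendrocyte markers differed by -0.18 there (exact permutation p = 0.0159, adjusted 0.0582), against -0.08 on all 12 arrays. The choroid plexus markers differed by -0.52 on the 9 arrays (exact permutation p = 0.0317, adjusted 0.0873), against -1.10 on all 12.

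Few pairs of the 10 genes varied together from array to array. Over the 45 pairs of their highest-signal probe sets, with group means removed, the median Pearson r was 0.06 and 6 pairs (13.3%) reached 0.5, where 7.2% of all pairs of tested probe sets did and the median was 0.00. These values share arrays and normalization. Aqp4 1372190_at and Ntsr2 varied together most closely (r = 0.88, permutation p = 0.00059, Spearman rho = 0.78, permutation p = 0.00687, n = 12). Adjusted over 54 pairs, 9 of them between probe sets of a gene, the permutation p were 0.0159 for r and 0.124 for rho. Their r was 0.85 within the spatial learning and 0.94 within the control task arrays, and 0.82 without the 2 arrays of most extreme Aqp4 signal. Without the 3 arrays that stood apart, 0 of the 54 pairs passed. With fewer arrays the same r gives a larger permutation p, so this count does not show whether the pairs rested on those 3.

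**Figure D5:**
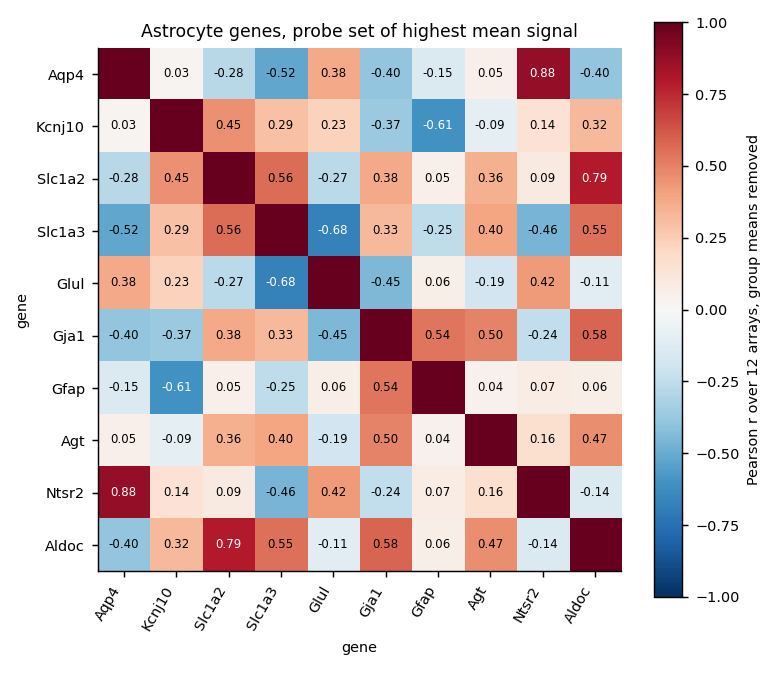
Pearson r (colour and printed value) between the 10 genes over 12 arrays with group means removed, each gene by its probe set of highest mean signal. Aqp4 with Ntsr2 at 0.88 and Slc1a2 with Aldoc at 0.79 are the highest, and Slc1a3 with Glul at -0.68 is the lowest.

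Slc1a2 1369693_a_at and Aldoc did not pass after adjustment (r = 0.79, permutation p = 0.0146, rho = 0.87, permutation p = 0.00199, adjusted 0.261 and 0.0537). Gja1 with Aldoc had an r of 0.58 (rho 0.37) that was -0.12 without the 2 arrays of most extreme Gja1 signal, so that it rested on them. The glutamate transporters Slc1a2 and Slc1a3 had an r of 0.56 (rho 0.63, permutation p = 0.155 and 0.0615), whereas Slc1a3 and Glul ran opposite (r = -0.68, rho = -0.64, permutation p = 0.0284 and 0.0389, r = -0.21 without the 2 extreme arrays). Kcnj10 and Gfap had an r of -0.61 (rho -0.56) that was 0.56 within the spatial learning and -0.83 within the control task arrays. Aqp4 and Kcnj10, often described together in endfeet, had an r of 0.03 with Aqp4 1372190_at (rho -0.10, permutation p = 0.943 and 0.775).

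Probe sets of a gene agreed unevenly. Glul 1386870_at and 1367633_at gave r = 0.95 (permutation p = 0.00019, rho = 0.96, permutation p = 6e-05, adjusted 0.0103 and 0.00324), the closest of the 54 pairs, and held 0.90 without the 2 extreme arrays. Glul 1367632_at, which stood for the gene in the pairs above, was less close to them. Its r was 0.34 with 1386870_at and 0.57 with 1367633_at (adjusted permutation p = 0.569 and 0.413). The Slc1a3 pair gave 0.63, the Slc1a2 pair 0.44, the Aqp4 pairs 0.06 to 0.49 and the Gja1 pair -0.16, with adjusted permutation p for r from 0.261 to 0.898. The 3 probe sets with the smallest p of Slc1a2, Aqp4 and Kcnj10 were also paired, a choice made after their values were seen. Aqp4 1368981_at and Kcnj10 had an r of 0.51 and a rho of 0.58 (permutation p = 0.0687 and 0.0584, adjusted over the 3 pairs 0.206 and 0.175), with r of 0.56 within the spatial learning and 0.60 within the control task arrays, and 0.45 without the 2 arrays of most extreme Aqp4 signal. Slc1a2 1369694_at had an r of 0.41 with Kcnj10 (rho 0.31, permutation p = 0.245 and 0.347) and of -0.10 with Aqp4 1368981_at (rho -0.05, permutation p = 0.749 and 0.893).

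The genes outside the set whose array-to-array pattern was most like the mean of the 10 standardised genes were Gab1 at r = 0.89, Ikbkb at 0.88, Rnase4 at 0.88, Pcna at 0.84, C1galt1 at 0.83 and Car2 at 0.83. These r, over 12 arrays, were the highest among all tested probe sets with 1 symbol and are given as a description. Their own differences between the groups ran from -0.15 to 0.07.

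Other genes of the same pathways were followed in 6 lists, each gene by its highest-signal tested probe set, and 0 genes of any list passed in limma. Unadjusted limma p under 0.05 were found for 2 of 11, 2 of 15, 0 of 3, 6 of 41, 2 of 8 and 1 of 3 genes in the order below, against 10.9% of all tested probe sets in either direction. Of 11 tested water, potassium and ion handling genes 5 were lower and 6 higher (median 0.04). Atp1b2, a sodium pump subunit of astrocytes, averaged 9.67 after spatial learning and 10.12 after the control task, a difference of -0.45 (SE 0.15, limma adjusted p = 0.416). Without the 3 arrays that stood apart it was -0.71 and passed (limma adjusted p = 0.0123). Dtna, the dystrobrevin of the endfoot complex that anchors Aqp4, differed by -0.25, Slc4a2 by -0.21 and the chloride channel Clcn2 by 0.11, with an unadjusted limma p under 0.05 for Atp1b2 and Dtna.

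Of 15 genes that handle glutamate, glutamine and GABA 10 were lower and 5 higher (median -0.03). Slc1a1, the mainly neuronal glutamate transporter, differed by 0.14 and Abat, GABA transaminase, by -0.29, with limma adjusted p of 0.429 and 0.437. Slc7a10 differed by 0.09 and Got2 by -0.07. The 3 tested genes of gap junctions and their partners were all lower, Tjp1 at -0.06, Gjb2 at -0.31 and Gjb6 (Cx30) at -0.12, with limma adjusted p from 0.538 to 0.705. Gjb2 was also listed as a meningeal marker.

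Of 41 further astrocyte markers 28 were lower and 13 higher (median -0.03). Those with the smallest p were Acsl3 at -0.16 (SE 0.04), Id2 at -0.50 (SE 0.14), the metallothionein Mt3 at 0.11 (SE 0.04) and Ndrg2 at -0.13 (SE 0.05), with limma adjusted p from 0.366 to 0.429. Of 8 tested genes listed for reactive astrocytes 6 were lower, among them Stat3 at -0.26, Ptgs2 at -0.41 and Vim (vimentin) at -0.16, while S100a10 stood at 0.12. In bulk CA1 their RNA can also come from neurons or other cells. In the angiotensin and neurotensin list 3 of 13 genes were tested, Sort1 (sortilin, which also binds neurotensin) at 0.13, Agtrap at -0.05 and Mas1 at -0.03.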

How the data were processed

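The authors deposited 1 table of log2 probe set values, made with GCRMA per the submitters' processing notes, version unstated. The log2 scale was taken from its range, 0.134 to 14.8. GCRMA corrects probes for background by their sequence and makes the arrays' distributions nearly equal, so a change in total RNA cannot be seen. Between any 2 arrays r was 0.996 to 0.998, and the number of arrays limits the precision. 

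Of 15923 probe sets 57 are controls, 12783 others have 1 symbol, 312 several and 2771 none here. Probe sets with a mean of at least 4 (9610) were fitted with limma 3.58.1 in R 4.3.3 (trended variance, a group term alone, 2-sided, Benjamini-Hochberg over all, threshold 0.05). Exact permutation tests ran over the 924 ways to choose 6 of 12 arrays, and correlations used 100000 permutations within groups. On simulated data for this comparison (9610 probe sets) 89% of changes of 0.5 and 97% of changes of 1 were recovered, with 11 false calls. The simulated noise was normal and independent between probe sets, so these shares may not hold for the real table. Nor do they describe a probe set of wide spread. Slc1a2 1369694_at had an SE of 0.20, against a median of 0.07 over all tested probe sets. Whether equal replicate numbers pair the groups is not stated, and same-number deviations correlated from -0.171 to 0.082. Replicate 6 of both groups shared a high meningeal Col1a1, at 6.67 in the control task and 6.84 in spatial learning, against at most 3.71 elsewhere. Pairing was therefore not settled.

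The genes and lists were chosen with earlier results of these data known. Named genes were every astrocyte probe set, up to 4 genes per pathway list by p, and the pairs and 6 most alike genes by r. Alternatives changed the filter, variance model, array weights, scaling, test, block, covariate and arrays. The labels name no scan batch.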

Additional observations from a re-analysis of the deposited data

How the results depend on the processing

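The differences of the 17 probe sets were recomputed under 23 alternatives. Of 390 values 378 kept their direction and their side of the threshold. Another 0 came to pass and 12 changed sign, in Gfap, Aldoc, Slc1a3 1368565_at and Gja1 1372002_at. Changes of the filter, variance model or test, and the replicate block, cannot alter a difference, and only its adjusted p could move. The count of kept directions includes these values, so it overstates how far the directions were tried. The Gfap difference was -0.012 with array weights, -0.037 with the hexokinase covariate and -0.020 without the 3 arrays, where Aldoc was -0.0015. Leaving out 1 replicate at a time gave ranges of -0.0076 to 0.074 for Gfap, -0.0060 to 0.053 for Aldoc, -0.067 to 0.0078 for Slc1a3 1368565_at and -0.033 to 0.0043 for Gja1 1372002_at. Slc1a2 1369694_at ranged from -1.15 to -0.59 (limma adjusted p 0.0529 to 0.772) and Aqp4 1368981_at from -0.47 to -0.33 (limma adjusted p 0.0728 to 0.747) over all alternatives. Without spatial learning replicate 2 Slc1a2 1369693_a_at was -0.10, and without spatial learning replicate 5 Aqp4 1372190_at was -0.038 and Glul 1367632_at -0.071. The Slc1a2 gap ranged from -0.95 to -0.52 (adjusted p 0.0478 to 0.915), and 1 of the 7 astrocyte gaps passed with array weights, 0 to 1 when 1 replicate was left out. Of all 1144 gaps 3 passed, and 0 to 4 did under the alternatives. Of all 9610 tested probe sets 0 passed, 3 with array weights, 5 without the 3 arrays and 0 to 3 when 1 replicate was left out (3 without control task replicate 6). Without the 3 arrays 1 pathway gene (Atp1b2), 0 of the 54 correlations (2 otherwise) and 2 of the 11 control and marker measures (hexokinase and CA1 markers, hexokinase alone otherwise, 1) passed. With the replicate block, whose numbers are not known to pair the arrays, 0 probe sets and 0 gaps passed. The Slc1a2 gap of -0.81 cannot change under this block, and its limma adjusted p was 0.0875. The cause of these shifts was not tested. Kcnj10 had no value under the stricter filter, a mean of at least 6, which it does not reach.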
